A study of Homo sapiens with 8 samples.

Results

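The genes described here are 6 channels of the transient receptor potential (TRP) family, TRPM8, TRPM4, TRPM7, TRPM2, TRPV6 and TRPC1, and 4 genes of store-operated calcium entry, ORAI1, ORAI3, STIM1 and STIM2. They were measured in LNCaP cells, a line derived from a lymph node metastasis of a human prostate cancer, after transfection with 30 nM of an siRNA against the transcription factor GATA2 (labelled siGATA2) or of a control siRNA (labelled siControl). RNA was taken 72 h after transfection, and 4 one-colour Agilent arrays were deposited for each group. The probes of the 10 genes were found through their RefSeq accessions. The genes were chosen with earlier results of the same arrays known, from their siGATA2 and siControl values. Those values are therefore given as a description, with no p for any of the 10 and with calls only counted and listed. The array held 12 probes for the 10 genes, out of 42405 probes in all. All 10 genes were among the 28850 that passed the filter on dim probes. Both groups share the same cell line, dose and time, and nothing in the labels says whether the 4 arrays of a group came from separate cultures, so the p-values measure the spread between these arrays only, which may be technical.

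TRP channels are cation channels of the cell surface and of internal membranes, opened by temperature, lipids, binding partners or calcium itself. TRPM8 is the receptor for cold and menthol in sensory neurons, and in the prostate it is expressed by luminal epithelial cells. TRPV6 is a highly calcium-selective channel that is also expressed in prostate cancer. In store-operated entry, emptying of the endoplasmic reticulum is sensed by STIM proteins, which then open ORAI pores in the plasma membrane.

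Start-site sequences of 4 genes are shown because they stand at the ends of the list, since TRPM8 and TRPV6 had the lowest siGATA2 minus siControl differences of the 10 genes and TRPC1 and STIM1 the highest among those whose groups did not overlap. Each line gives 250 bases before and 50 bases after the RefSeq start site (GRCh38.p14), 5′ to 3′ on the strand of the gene, with every CG pair in capitals. The table holds 1 start site a gene, and those of TRPM2 and STIM1 lie inside the annotated gene.
TRPM8 promoter, chr2:233917123-233917422, plus strand: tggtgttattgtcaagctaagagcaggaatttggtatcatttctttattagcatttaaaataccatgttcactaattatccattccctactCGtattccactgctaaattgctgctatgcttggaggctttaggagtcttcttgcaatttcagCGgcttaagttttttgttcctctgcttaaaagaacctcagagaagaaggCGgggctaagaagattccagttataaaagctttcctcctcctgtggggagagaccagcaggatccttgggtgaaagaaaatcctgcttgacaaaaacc
TRPV6 promoter, chr7:142885696-142885995, minus strand: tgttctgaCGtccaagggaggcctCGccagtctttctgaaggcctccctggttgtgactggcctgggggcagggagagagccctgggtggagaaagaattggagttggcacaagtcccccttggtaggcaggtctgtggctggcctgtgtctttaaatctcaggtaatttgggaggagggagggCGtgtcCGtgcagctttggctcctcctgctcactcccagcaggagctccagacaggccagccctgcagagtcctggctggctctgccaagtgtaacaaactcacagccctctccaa
TRPC1 promoter, chr3:142723784-142724083, plus strand: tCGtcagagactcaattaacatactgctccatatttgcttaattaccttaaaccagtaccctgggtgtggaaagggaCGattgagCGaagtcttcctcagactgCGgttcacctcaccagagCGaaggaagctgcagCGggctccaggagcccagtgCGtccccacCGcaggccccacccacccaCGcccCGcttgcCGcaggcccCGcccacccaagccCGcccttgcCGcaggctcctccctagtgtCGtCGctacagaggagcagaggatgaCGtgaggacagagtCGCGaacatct
STIM1 promoter, chr11:3855414-3855713, plus strand: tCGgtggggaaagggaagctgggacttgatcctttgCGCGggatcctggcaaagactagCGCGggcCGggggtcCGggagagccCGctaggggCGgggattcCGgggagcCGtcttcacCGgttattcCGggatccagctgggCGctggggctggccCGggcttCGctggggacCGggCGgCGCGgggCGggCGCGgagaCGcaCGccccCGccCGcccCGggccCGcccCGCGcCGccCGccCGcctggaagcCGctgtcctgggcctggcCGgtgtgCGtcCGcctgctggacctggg

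The TRPM8 window held 3 CG pairs and was 41.0% G and C, and 25.3% of all 27305 promoters in the RefSeq table had as few CG pairs. TRPV6 had 4 CG pairs and TRPM2 had 6, against a median of 14 over all promoters. The other 6 genes with a promoter in the table had more than that median, from 17 in ORAI3 to 48 in TRPM7, with 19 in TRPC1, 21 in TRPM4, 38 in STIM1 and 45 in STIM2. The 3 windows poorest in CG pairs were those of genes with lower siGATA2 signal, and the others belonged to genes of both directions and to genes whose groups overlapped. A TATA box, searched as TATAAA on both strands, lay 27 bases before the TRPM8 start site and in none of the other 8 windows, while 12.0% of all promoters held one. The letters of a GATA site, searched on both strands as AGATAA and in the forms that begin with T, end in G or do both, were in none of the 9 windows and in 25.5% of all promoters. These are matches of letters in short windows, and binding was not measured on the arrays.

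Before any direction is read, the targeted gene sets a limit. GATA2 was read from the 1 probe matched to it, and its signal was not lower on the arrays labelled siGATA2. It was 12.61, 12.54, 11.57 and 11.40 on the log2 scale there, and 11.74, 11.28, 11.10 and 11.29 on those labelled siControl. The difference was 0.68 (SE 0.312, limma adjusted p = 0.154). It passed as higher with array weights, at 1.10 (limma adjusted p = 0.00194), and with a block that parts title letters A and B from D to G, at 0.47 (limma adjusted p = 0.0261), and was 0.03 with E1A spike-in scaling. Each direction below therefore rests on the labels of the arrays. siControl arrays 1 and 3 had the fewest probes well above background, 28485 and 24241 against 33969 to 36968 on the other 6 arrays, and the largest standard deviations of the negative controls, 4.49 and 7.26 intensity units against 1.78 to 2.4. Without these 2 arrays the difference was -5.13 for TRPM8 and -2.93 for TRPV6. Prostate luminal markers had signal well above background on all 8 arrays for 8 of 8 genes, with a summed signal of 282000 to 448000 intensity units on siGATA2 arrays and 403000 to 503000 on siControl arrays. Of these 8, 4 fell, KLK3 and KLK2 among them, and KRT8 rose. Leukocyte markers had 1 of 3 genes well above background on all 8 arrays, with sums of 931 to 1130 against 443 to 542, and PTPRC and CD68 rose. No array read the basal keratin KRT5 well above background, but 4 siGATA2 and 3 siControl arrays read KRT14 so. For TP63 these counts were 2 and 1. Thus 0 of 3 basal markers were well above background on all 8 arrays (sums of 25.9 to 36.2 against 31.8 to 105). Of the fibroblast markers, 1 of 3 was (407 to 843 against 600 to 1040, with PDGFRB lower). What these markers contribute to the differences below was not tested. All 8 arrays are labelled as LNCaP cells, which are 1 cell line. In bulk RNA, a change in some of the cells and a change in every cell cannot be told apart.

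TRPM8 differed most. Its signal, on the quantile-normalized log2 scale that is used throughout, was 6.04, 5.88, 5.26 and 5.86 on the 4 arrays labelled siGATA2 and 10.77, 10.99, 10.70 and 10.78 on the 4 labelled siControl. All siGATA2 arrays were low and all siControl arrays high, with 4.66 between the highest siGATA2 and the lowest siControl value. The means were 5.76 ± 0.342 (SD, n = 4) and 10.81 ± 0.123 (SD, n = 4), a difference of -5.05 (SE 0.179), or 33.2-fold lower signal with siGATA2. Signal stood well above background on each of the 8 arrays, so the low values were measured. Of the 28850 genes tested, 0.00347% had a lower difference, which is KLHL1 at -5.35. The lowest siGATA2 value was on array 3, and the spread of the siGATA2 arrays was wider than that of the siControl arrays.

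The arrays could be split by slide position and by title. The 8 arrays lay on 1 slide in 2 rows, with siGATA2 arrays 1, 2 and 3 and siControl array 4 in 1 row and the other 4 arrays in the other, and the TRPM8 difference was -5.06 and -4.96 within these rows. Each array title also carries a letter, which the labels do not explain. The letters were A, B, E and F for siGATA2 arrays 1 to 4 and B, D, F and G for siControl arrays 1 to 4. For every gene, the only control within letters A and B is therefore siControl array 1. Among arrays with letters A and B the TRPM8 difference was -4.82 (2 arrays against 1), and among those with letters D to G it was -5.26 (2 against 3). Across the processing settings tried it stayed between -5.52 and -3.75.

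TRPV6 had the next lowest difference of the 10 genes. Its brighter probe read 7.19, 7.16, 6.08 and 5.98 on the arrays labelled siGATA2 and 9.73, 9.55, 9.47 and 9.53 on those labelled siControl. The siControl values lay close together, while the siGATA2 values fell into a higher pair, arrays 1 and 2, and a lower pair, arrays 3 and 4, both below every siControl array. Its means were 6.61 ± 0.662 and 9.57 ± 0.111 (SD, n = 4 each), a difference of -2.96 (SE 0.305) or 7.8-fold. A second TRPV6 probe gave -3.11 (SE 0.327) or 8.64-fold, with 7.08, 7.11, 5.87 and 5.81 against 9.66, 9.56, 9.50 and 9.59. Both probes therefore showed the same split of the siGATA2 arrays. Within letters A and B the difference of the brighter probe was -2.55 and within letters D to G -3.48. Lower differences than -2.96 were found in 0.319% of the genes tested. With normexp background correction the TRPV6 difference was -2.34 (SE 0.184).

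The protein-coding chromosomal neighbours of both genes were looked at as well. TRPM8 lies at chr2:233917373-234019522 (GRCh38.p14), and the nearest protein-coding gene tested, SPP2, 31180 bases away, had a difference of 0.22 (SE 0.651) and did not pass. TRPV6 lies at chr7:142871208-142885745, only 115 bases from EPHB6, whose difference was -0.37 (SE 0.266, limma adjusted p = 0.344). On its other side, 22356 bases away, is its closest paralog TRPV5, which fell by 0.98 (SE 0.192, limma adjusted p = 0.00716), with 6.54, 6.56, 6.79 and 6.64 against 7.29, 7.46, 8.16 and 7.53. Cross-hybridisation between the TRPV5 and TRPV6 probes was not tested.

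The remaining TRPM members are channels of other kinds. TRPM4 is a calcium-activated channel that passes monovalent cations and not calcium. It read 11.51, 11.37, 10.65 and 10.66 with siGATA2 and 12.09, 12.02, 12.10 and 12.01 with siControl. The groups did not overlap, and arrays 3 and 4 labelled siGATA2 were again the lower pair. Means of 11.05 ± 0.455 and 12.06 ± 0.0458 (SD, n = 4 each) gave a difference of -1.01 (SE 0.216) or 2.01-fold, with -0.65 within letters A and B and -1.39 within letters D to G, and with -0.83 and -1.41 within the slide rows.

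TRPM2, a calcium-permeable channel opened by ADP-ribose under oxidative stress, read 12.22, 12.16, 12.20 and 12.15 with siGATA2 and 12.40, 12.89, 12.90 and 12.91 with siControl. The siGATA2 arrays were nearly level, and siControl array 1 lay well below the other 3 siControl arrays though still above all siGATA2 arrays. The difference of -0.59 (SE 0.139) or 1.51-fold came from means of 12.18 ± 0.0338 and 12.77 ± 0.253 (SD, n = 4 each). It was -0.21 within letters A and B, where siControl array 1 is the control, and -0.73 within letters D to G. TRPM7, a magnesium- and calcium-permeable channel fused to a kinase, read 9.36, 9.32, 9.18 and 9.10 with siGATA2 and 9.26, 9.29, 8.75 and 9.14 with siControl. Its groups overlapped, with a difference of 0.13 (SE 0.146).

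Of the chosen TRP channels, only TRPC1, a subunit of receptor- and store-operated cation channels, was higher with siGATA2 without overlap of the groups. Outside this choice, TRPV1 and PKD2 also rose, as given below. The TRPC1 signal was 8.77, 8.97, 8.64 and 8.75 on the arrays labelled siGATA2 and 7.48, 6.45, 6.22 and 6.54 on those labelled siControl. Every siGATA2 array was above every siControl array, and siControl array 1 was the highest of the siControl group. The means of 8.78 ± 0.138 and 6.67 ± 0.557 (SD, n = 4 each) differed by 2.11 (SE 0.264) or 4.32-fold. All 4 siGATA2 arrays and 3 of 4 siControl arrays read it well above background. Within letters A and B, where siControl array 1 is the control, the difference was 1.39, and within letters D to G it was 2.29. With normexp background correction the TRPC1 difference was 1.53 (SE 0.178).

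**Figure D1:**
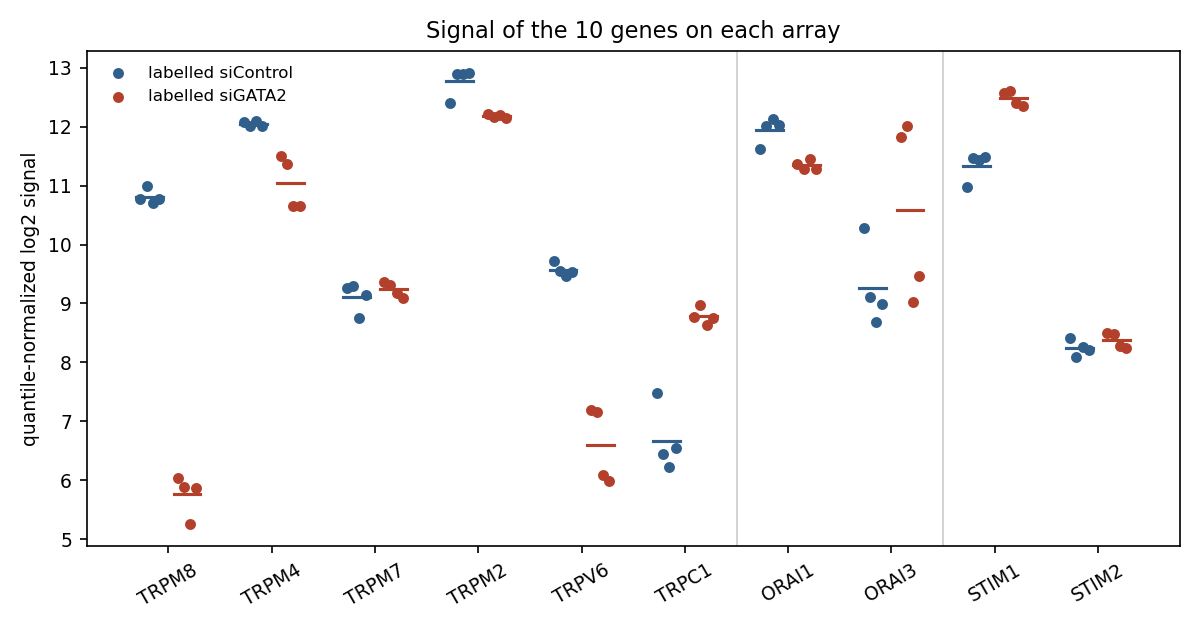
Quantile-normalized log2 signal of the 10 genes on each of the 4 arrays labelled siControl (blue) and the 4 labelled siGATA2 (red), with horizontal lines at the group means; levels of different genes come from different probes and are not comparable. The 2 groups are far apart for TRPM8 (5.76 against 10.81 on average) and TRPV6 (6.61 against 9.57), and the siGATA2 points of ORAI3 fall into 2 pairs.

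The ORAI pore subunits did not move together. ORAI1, the main pore of store-operated entry, read 11.37, 11.28, 11.46 and 11.29 with siGATA2 and 11.62, 12.01, 12.14 and 12.03 with siControl. The groups stood apart, with siControl array 1 closest to the siGATA2 arrays. Its means were 11.35 ± 0.08 and 11.95 ± 0.229 (SD, n = 4 each), a difference of -0.60 (SE 0.134) or 1.52-fold, with -0.29 within letters A and B and -0.69 within letters D to G.

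ORAI3, which forms pores with ORAI1 and on its own, was the least even of the 10 genes. It read 11.82, 12.02, 9.03 and 9.47 with siGATA2 and 10.28, 9.11, 8.68 and 8.99 with siControl. Arrays 1 and 2 labelled siGATA2 lay above all others, whereas arrays 3 and 4 lay among the siControl arrays. The means of 10.59 ± 1.55 and 9.26 ± 0.70 (SD, n = 4 each) gave a difference of 1.32 (SE 0.749), which was smaller than the SD of the siGATA2 group. The mean of the siGATA2 arrays with letters A and B exceeded that of the siGATA2 arrays with letters E and F by 2.67, and 0.253% of the genes tested had a larger such gap. Within letters A and B the siGATA2 minus siControl difference was 1.64, and within letters D to G it was 0.32. Within the slide rows it was 1.97 and 0.11.

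**Figure D2:**
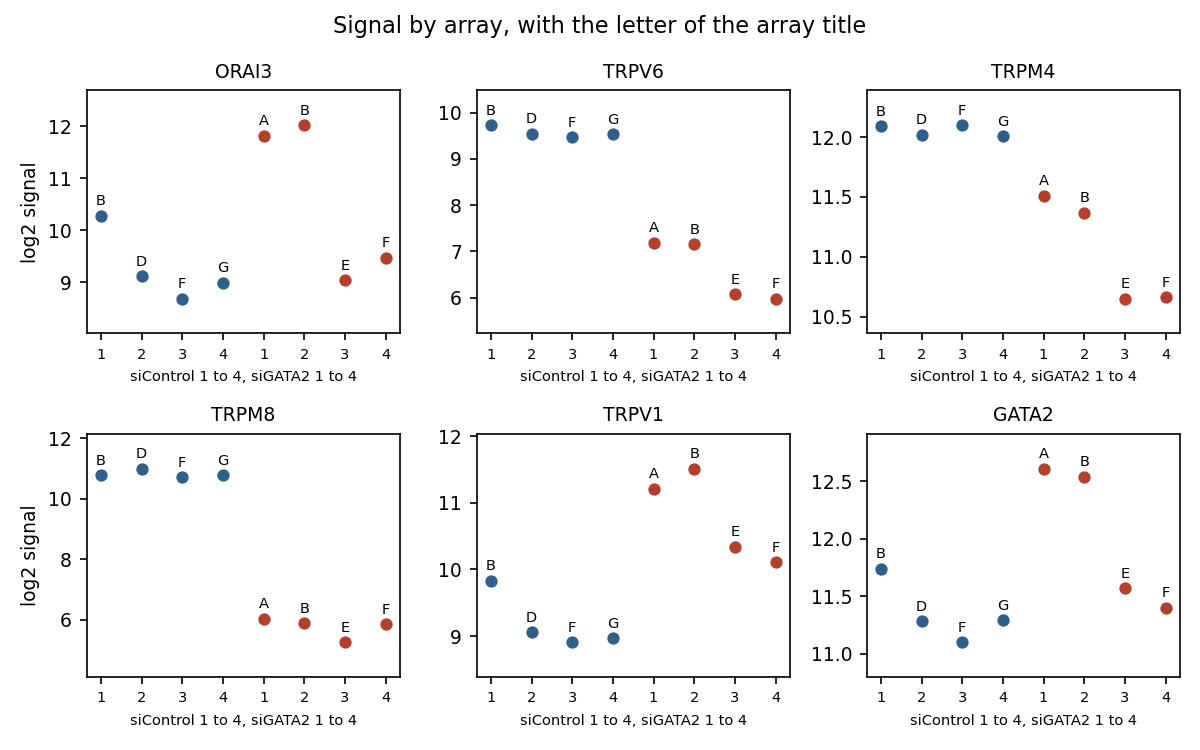
Log2 signal on each array of ORAI3, TRPV6, TRPM4, TRPM8, TRPV1 and GATA2, with siControl arrays in blue, siGATA2 arrays in red, the letter of the array title above each point and a separate y axis for each gene. In ORAI3 the siGATA2 arrays A and B (mean 11.92) stand above E and F (mean 9.25), and the same pairs separate in TRPV6, TRPM4, TRPV1 and GATA2.

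Of the calcium sensors, STIM1 read 12.58, 12.61, 12.41 and 12.36 with siGATA2 and 10.97, 11.47, 11.43 and 11.48 with siControl. All siGATA2 arrays were higher, and siControl array 1 was the lowest of its group. The means of 12.49 ± 0.127 and 11.34 ± 0.244 (SD, n = 4 each) differed by 1.15 (SE 0.146) or 2.23-fold. It was 1.63 within letters A and B and 0.93 within letters D to G. STIM2, which responds to smaller losses of stored calcium, read 8.50, 8.48, 8.27 and 8.25 with siGATA2 and 8.41, 8.09, 8.26 and 8.21 with siControl, with overlapping groups and a difference of 0.13 (SE 0.116). A second, dimmer STIM2 probe gave -0.17 (SE 0.186), and neither probe separated the groups.

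Of the 10 genes, 5 passed an adjusted p of 0.05 in the limma fit in the lower direction (TRPM8, TRPM4, TRPM2, TRPV6 and ORAI1), where 14.2% of all genes tested did, and 2 in the higher direction (TRPC1 and STIM1), where 12.3% did. The other 3, TRPM7, ORAI3 and STIM2, did not pass. At least 2-fold, 3 were lower (TRPM8, TRPM4 and TRPV6; 7.13% of all genes) and 2 higher (TRPC1 and STIM1; 4.52%). The same 5 and 2 genes were those whose groups did not overlap, against 16.5% of all genes lower, 16.2% higher and 32.6% in either direction. Of the 17858 genes tested with a symbol, 3389 passed as lower and 2704 as higher. Since the 10 genes were chosen from this contrast, nothing is read from these counts. Their median difference was -0.23, beside 0.09 over all genes tested. With siControl arrays 2 and 4 alone as the control group the differences were -0.97 for TRPM4, -0.72 for TRPM2, -0.67 for ORAI1, 1.02 for STIM1 and 2.29 for TRPC1. TRPM4 did not pass in that setting, and TRPM2 did not pass when siControl array 2 or siControl array 4 was left out. Scaling to the E1A spike-in probes moved the median difference of all genes from 0.09 to -0.43, but the mean log2 E1A signal was 11.13 on siControl array 1 against 13.45 to 13.83 on the other 7 arrays, so that scaling shifts 1 control array against all others. With it the differences were -1.24 (SE 0.461) for TRPM2, -1.24 (SE 0.466) for ORAI1, 1.68 (SE 0.611) for TRPC1 and 0.51 (SE 0.465) for STIM1, and none of these passed.

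**Figure D3:**
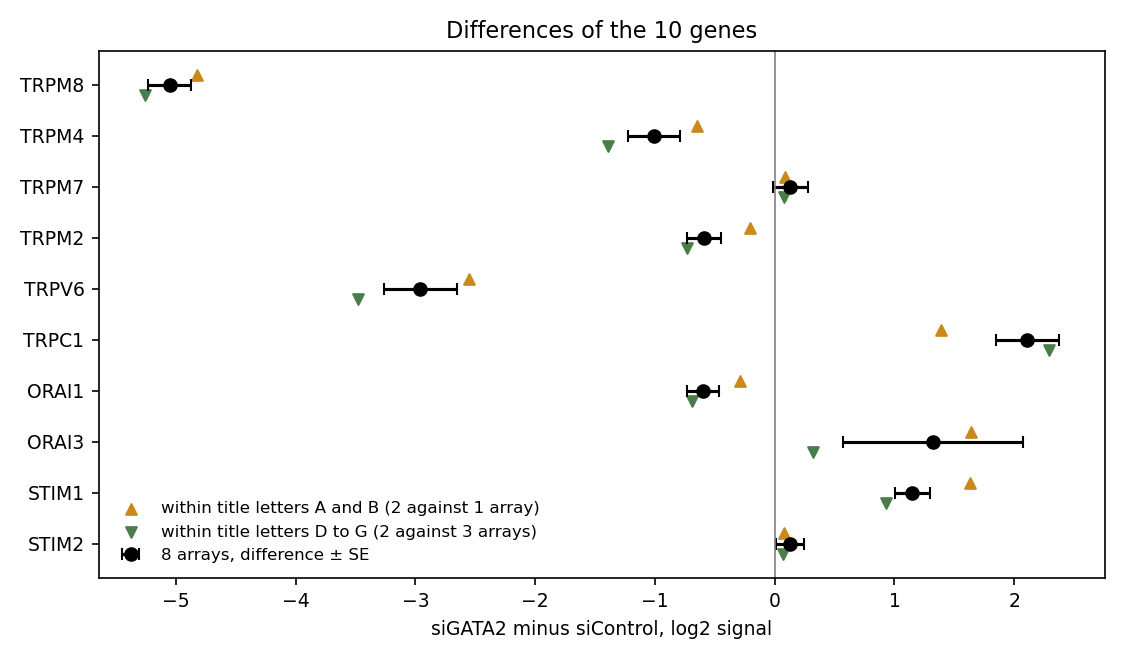
Difference in log2 signal, siGATA2 minus siControl, of the 10 genes over all 8 arrays (circles, bars show 1 SE from limma), within title letters A and B (upward triangles) and within title letters D to G (downward triangles). The only control within letters A and B is siControl array 1. TRPM8 (-5.05) and TRPV6 (-2.96) lie far to the left and TRPC1 (2.11) and STIM1 (1.15) to the right on every measure, while ORAI3 drops from 1.64 to 0.32 between the letter groups.

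Of 16557 genes with a symbol that all 4 arrays of 1 group or of both read well above background, the 5 whose profile lay nearest to that of TRPM8 were KLHL1, TTC29, UGT2B15, LRRTM4 and UNC13C. Likeness was the root mean square difference of the 2 profiles after each was centred on its own mean, and was 0.259 for KLHL1, 0.451 for TTC29, 0.480 for UGT2B15, 0.528 for LRRTM4 and 0.538 for UNC13C. UGT2B15 encodes an enzyme that conjugates androgens with glucuronic acid. Its signal was 8.09, 8.17, 8.36 and 8.50 with siGATA2 and 12.08, 13.20, 12.82 and 13.20 with siControl. KLHL1 followed TRPM8 most closely, with 5.59, 5.61, 5.47 and 5.68 against 10.63, 11.10, 10.93 and 11.11. The nearest of the other 9 genes was TRPV6, at 1.10 and in place 60. A measure of this kind favours genes with a like difference between the groups, and the nearest 5 had differences of -5.35 to -4.06.

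**Figure D4:**
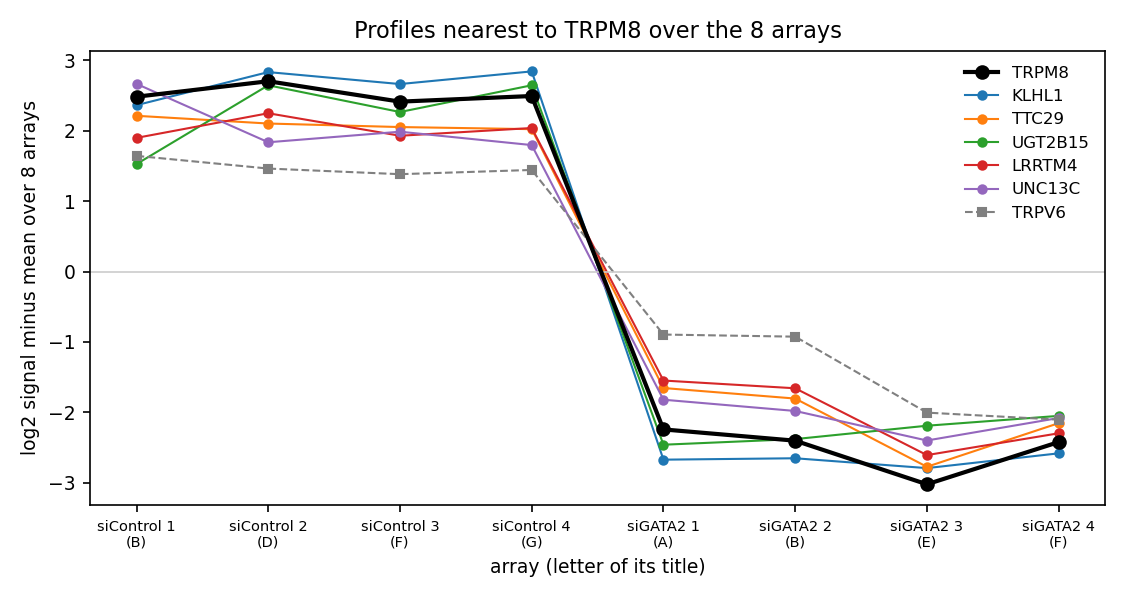
Log2 signal minus the mean over the 8 arrays for TRPM8 (black), the 5 genes with the nearest profiles and TRPV6 (dashed), by array, with the title letter in brackets. TRPM8 and the 5 genes drop by 4.06 to 5.35 on average from the siControl to the siGATA2 arrays, and TRPV6 drops by less (-2.96), least on siGATA2 arrays 1 and 2.

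The wider pathway was followed in 70 further genes in 7 lists, drawn up by function but with earlier results of these data known. Of these, 62 were bright enough to test, and 9 fell, 9 rose and 44 did not pass, which is 29.0% called beside 26.5% of all genes tested and 34.1% of those with a symbol. Their median difference was -0.11. All adjusted p-values below are from limma over the 28850 genes. With E1A spike-in scaling, 3 of these 18 calls were kept, those of MCOLN2, SLC35G1 and RYR2. With siControl arrays 2 and 4 alone as the control group, 7 pathway genes were lower and 8 higher.

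Among 15 other TRPM, TRPV, TRPC and TRPA channels 10 were tested, and 5 of the 15 were read well above background by no array. TRPV3 was tested though no array read it so. TRPM1 was too dim to test though 4 siGATA2 and 2 siControl arrays read it so. TRPV5, a calcium channel of kidney epithelium, fell as given above. TRPV1, the capsaicin and heat receptor, rose by 1.60 (SE 0.358, adjusted p = 0.0128), with 11.21, 11.51, 10.34 and 10.11 against 9.83, 9.06, 8.91 and 8.97. Arrays 1 and 2 labelled siGATA2 were the higher pair, as in ORAI3, and its second probe, with 1.63-fold higher signal, did not pass (adjusted p = 0.279 over all probes). TRPV1 missed the threshold with the mean over its probes (adjusted p = 0.0675) and with slide row as a block (adjusted p = 0.0624). The other 8 did not pass, among them TRPC6 at 0.26 (SE 0.11, adjusted p = 0.123). The list's median was 0.04.

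Of the 4 TRPML and TRPP channels tested, which work in lysosomes, cilia and the endoplasmic reticulum, MCOLN2 fell by 1.32 (SE 0.155, adjusted p = 0.000553), with 8.54, 8.36, 7.94 and 8.05 against 9.61, 9.58, 9.37 and 9.63. PKD2, the kidney disease channel polycystin, rose by 0.77 (SE 0.112, adjusted p = 0.00154). MCOLN1 and PKD2L1 did not pass.

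Of 9 other store-operated entry genes tested 2 fell and 2 rose. SLC35G1, a partner of STIM1, fell by 1.90 (SE 0.304, adjusted p = 0.0026), and by 1.28 with normexp background correction. ORAI2, the third ORAI pore, fell by 0.50 (SE 0.137, adjusted p = 0.0285). It missed the threshold when any array but siControl array 1 was left out (adjusted p = 0.0542 to 0.0844) and with slide row as a block (adjusted p = 0.0743). EFHB, a STIM1-binding calcium sensor, rose by 1.31 (SE 0.183, adjusted p = 0.00131), and by 0.67 with normexp. It was read well above background by 4 siGATA2 and 3 siControl arrays. SARAF, which turns store-operated entry off again, rose by 0.51 (SE 0.104, adjusted p = 0.00871), but its difference was -0.23 when arrays were scaled to the E1A spike-in probes and it did not pass with 75th percentile scaling (0.37, adjusted p = 0.156). The list's median was -0.15.

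The 6 calcium release channels of the endoplasmic reticulum went both ways. RYR2, a ryanodine receptor, read 5.48, 5.28, 4.96 and 4.73 with siGATA2 and 7.11, 6.96, 6.68 and 6.86 with siControl, with no overlap, and fell by 1.79 (SE 0.186, adjusted p = 0.000294), or by 0.88 with normexp. A second, dimmer RYR2 probe gave a smaller difference of -0.96 (SE 0.196), and the mean over the probes gave -1.37. ITPR3 fell by 0.69 (SE 0.196, adjusted p = 0.0339), whereas ITPR2 rose by 1.85 (SE 0.233, adjusted p = 0.000778), with 8.50, 8.48, 7.78 and 8.26 against 6.79, 6.47, 5.90 and 6.43. Both are inositol trisphosphate receptors, and ITPR1, the other one, did not pass. ITPR3 missed the threshold with the methods' test (adjusted p = 0.0549), slide row as a block (adjusted p = 0.0982), siControl arrays 2 and 4 alone (adjusted p = 0.115) and 5 of the 8 settings that leave out 1 array, and ITPR2 was 1.25 with normexp. ITPR2 was read well above background by 4 siGATA2 and 3 siControl arrays.

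Phospholipase C cuts the membrane lipid PIP2, which keeps TRPM8 and TRPV6 open. In that list of 13, PLCB1 fell by 0.83 (SE 0.157, adjusted p = 0.00614), PLCG2 fell by 0.84 (SE 0.208, adjusted p = 0.0198) and PLCD4 rose by 2.73 (SE 0.524, adjusted p = 0.00636). PLCD4 read 7.81, 7.77, 6.33 and 6.33 with siGATA2 and 5.42, 4.53, 3.80 and 3.57 with siControl, again with siGATA2 arrays 1 and 2 as the higher pair, and its difference was 1.23 with normexp. PLCG2 was -0.32 with normexp. It missed the threshold with slide row as a block (adjusted p = 0.082) and in 4 of the 8 settings that leave out 1 array. PLCG2 and PLCD4 were each read well above background by 4 siGATA2 and 3 siControl arrays. The other 10 did not pass, and the median was -0.13.

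Among 9 partners of TRPM8 and TRPV6 and calmodulins, none fell and 3 rose, with a median of 0.12. UBA1, a ubiquitin-activating enzyme, rose by 1.01 (SE 0.14, adjusted p = 0.00131). PIRT, a phosphoinositide-binding partner of TRPM8 and TRPV1, passed at 2.08 (SE 0.604, adjusted p = 0.0376), but 0 of 4 siControl arrays and 3 of 4 siGATA2 arrays read it well above background. With the siControl values raised to a floor, defined below, its signal was 1.52-fold higher. The call was lost with 75th percentile scaling (adjusted p = 0.0723), normexp (0.39, adjusted p = 0.0913), the methods' test (adjusted p = 0.0774), slide row as a block (adjusted p = 0.0945), siControl arrays 2 and 4 alone (adjusted p = 0.0972) and 5 of the 8 settings that leave out 1 array. The 1.52-fold value sets the siGATA2 mean against, on each siControl array, the higher of the PIRT signal and the lowest signal of a probe well above background. It is not a lower bound over all settings, as not every siGATA2 array read PIRT well above background and normexp gave 0.39. TCAF1 and TCAF2, which bring TRPM8 to the cell surface, did not pass, at 0.12 (SE 0.163, adjusted p = 0.637) and 0.12 (SE 0.156, adjusted p = 0.620).

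Of the 11 calcineurin and NFAT genes, which read out sustained calcium entry, NFATC3 fell by 0.37 (SE 0.103, adjusted p = 0.0304) and 10 did not pass, with a median of -0.20. The NFATC3 call was lost with 75th percentile scaling (adjusted p = 0.0563), the replicate block (adjusted p = 0.0751), slide row as a block (adjusted p = 0.0862), siControl arrays 2 and 4 alone (adjusted p = 0.09) and 6 of the 8 settings that leave out 1 array. Among those 10, the calcineurin regulators RCAN1 (-0.17), RCAN2 (-0.20) and RCAN3 (-0.38) all had overlapping groups.

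**Figure D5:**
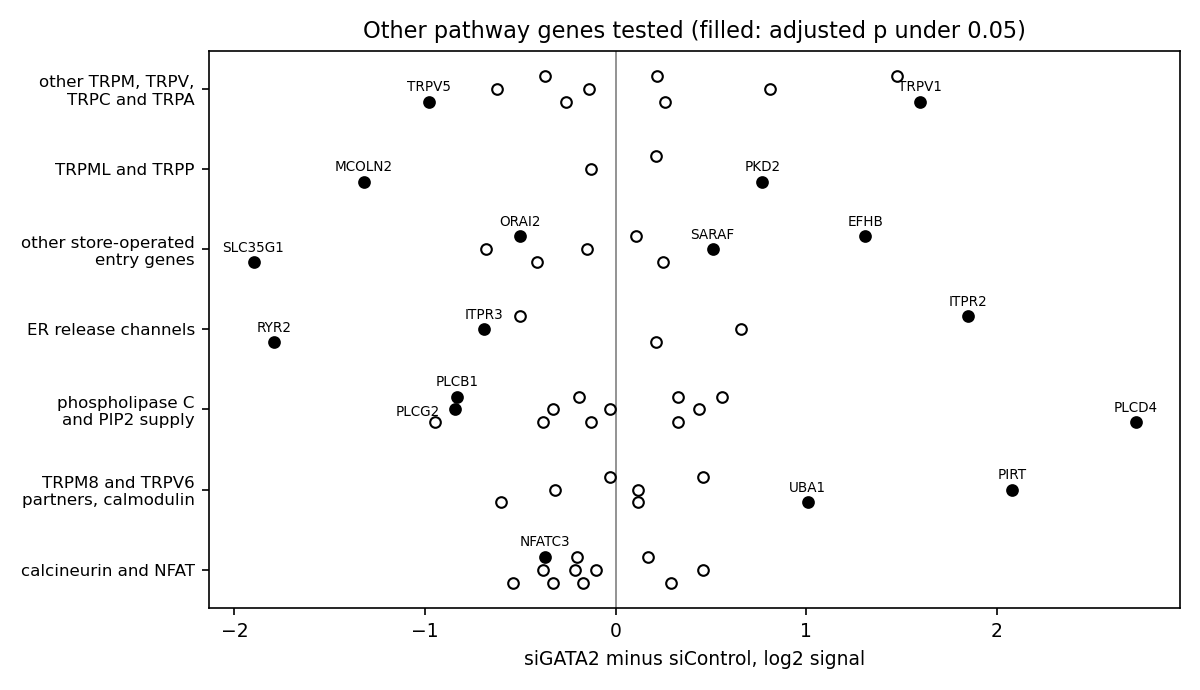
Difference in log2 signal, siGATA2 minus siControl, of the pathway genes tested, 1 point a gene, by list and with 1 of the 62 not shown, with genes that passed an adjusted p of 0.05 filled and named and the height within a list set for legibility only. The genes that fell reach from -1.90 to -0.37 and those that rose from 0.51 to 2.73, in 7 lists whose points lie on both sides of 0.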

How the data were processed

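Spots were read with Feature Extraction of Agilent, whose version the submitters' processing notes give as 11.0.1.1. The authors deposited the intensity of every spot, background-corrected as the processed signal, beside a matrix of log2 values (correlation with the processed signal at least 0.985 on each array). The array design in the file headers differs from that in the methods. In R 4.3.3, log2 processed signals were averaged over unflagged spots and quantile-normalized with limma 3.58.1. Unannotated probes and those with a mean log2 signal under 3 were dropped, which left 35514, and each gene was read from its brightest probe. RefSeq accessions were held by 27902 probes, of which 26364 gave a symbol. Groups were compared with lmFit and eBayes and Benjamini-Hochberg adjustment over 28850 genes, and a call was an adjusted p under 0.05. The number of arrays, 4 per group, limits the precision.

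The 10 genes and the 7 lists were chosen with earlier results of these data known. In each list, up to 3 called genes per direction were named, with the 5 nearest profiles to TRPM8. Of the genes this rule names, 1 is not reported here. Promoters came from RefSeq (GRCh38.p14), and 9 of the 10 genes matched. The fit was tested on simulated data first. Alternatives were 75th percentile and E1A spike-in scaling, normexp with an offset of 50, other dim-probe filters, the deposited log2 values, the mean over probes, the methods' t-test, blocks by replicate number, title letter and slide row, array weights, siControl arrays 2 and 4 only, and leaving out each array. A slide block could not be fitted with 1 slide.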

Additional observations from a re-analysis of the deposited data

Results flagged for a closer look

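In 62 groups of 4 arrays, 4 had 1 array far from the other 3 by the ratio of the gap to the nearest array to the whole range of the group. Chance alone gives this in about 1 in 20 groups. In all 4 it was siControl array 1, the array with title letter B. For TRPM2 the gap was 0.955 of the range, with 12.40 against 12.89 to 12.91, and for STIM1 it was 0.894, with 10.97 against 11.43 to 11.48. For ORAI2 it was 0.839, with 8.94 against 9.36 to 9.44, and for TRPV1 0.832, with 9.83 against 8.91 to 9.06. Each of these values was nearer to the siGATA2 arrays than the other 3 siControl values, except for STIM1, where it was farther from them. The part of the higher negative control spread of this array in these values was not tested.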

How the results depend on the processing

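Over 22 other settings the TRPM8 difference was below 0 in 22, at -5.52 with spike-in scaling and -3.75 with normexp, and between -5.15 and -4.89 with 1 array left out. Its place from the lowest was 2 or 3, and 5 with normexp. Against 4086 lower and 3558 higher genes, spike-in scaling called 1899 lower and 141 higher (at least 2-fold higher 141, against 1304), with 3 of the 10 genes lower, 0 higher, and 3 pathway genes lower and 0 higher. Of its called genes 93.1% were lower, against 53.5% with quantile and 48.4% with array weights, and E1A signal was 11.13 on siControl array 1 against 13.45 to 13.83 elsewhere. SARAF turned to -0.23 with it. Normexp called 818 genes at least 2-fold higher. Array weights called 7537 lower, 8042 higher and 3203 at least 2-fold higher, with 4 of the 10 genes higher, 22 pathway genes lower and 17 higher, and put GATA2 at 1.10 (limma adjusted p = 0.00194). Title letter as a random block called 5340 higher and 14 pathway genes higher, and slide row as a block 2184 higher and 5 pathway genes lower. A block that set letters A and B apart from the later ones, chosen after seeing the data, called 7198 higher and 17 pathway genes higher and gave GATA2 0.47 (limma adjusted p = 0.0261). With 1 array left out, pathway genes lower ranged from 5 to 9. Replicate numbers did not pair the arrays, as same-numbered arrays deviated together with correlations of 0.54, -0.31, 0.17 and 0.22, and the replicate block gave 3708 lower and 3376 higher genes, 5 and 2 of the 10 genes, 8 and 11 pathway genes, 2082 and 1552 genes at least 2-fold lower and higher, TRPM8 at -5.05 and GATA2 at 0.68. The other 9 genes stayed within their spread in 186 comparisons and moved in 12. The named pathway genes kept direction and call in 336, lost the call in 58 and turned in 1. The causes were not tested.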

Other observations

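The pairs of siGATA2 arrays seen in ORAI3 also divided genes of the calcineurin and partner lists that did not differ between the groups. S100A10, the annexin partner that carries TRPV6 to the membrane, read 7.95 and 7.92 on siGATA2 arrays 1 and 2 (title letters A and B) and 9.75 and 9.78 on arrays 3 and 4 (letters E and F), against 8.60 to 9.60 on the siControl arrays. RCAN3, a calcineurin regulator, read 8.51 and 8.49 against 9.65 and 9.66, with 9.35 to 9.54 on the siControl arrays. Phospholipase PLCB2 went the other way, with 8.04 and 7.75 against 6.25 and 5.84, and 7.59 to 8.58 on the siControl arrays. These genes were chosen after their values were seen, and what the letters stand for is not given in the sources used here.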
